A study of Mus musculus with 24 samples.

Results

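Whisker (vibrissa) follicles cultured with 3 vitamin derivatives at once, the group PEE-PH-TA, were compared with follicles cultured with no added compound, the control group. The arrays were chosen by their titles, and they were 3 of PEE-PH-TA and 3 of control, 6 of the 24 arrays of the series. PEE-PH-TA medium was given 0.3% panthenyl ethyl ether (PEE), 0.015% pyridoxine hydrochloride (PH) and 0.024% tocopherol acetate (TA). None of them was added to control medium, and what the medium and serum themselves held was not measured. The pairs PEE-PH, PEE-TA and PH-TA, with 3 arrays each, were given the same strengths with 1 compound not added. All follicles came from B6C3F1 mice on postnatal day 9 and spent 24 h in RPMI medium with fetal bovine serum. Each sample was RNA pooled from 10 whole follicles, so sheath, shaft, papilla and resident immune cells were measured together, and fewer cells of a type cannot be told apart from less of an RNA per cell.

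PEE is a derivative of panthenol, the alcohol of vitamin B5, from which cells make coenzyme A. PH is a form of vitamin B6, the cofactor of many amino acid enzymes, and TA is an ester of vitamin E, a lipid antioxidant. Hair follicles hold matrix cells that divide, and these mature into the shaft and its inner root sheath, while an outer sheath and a dermal papilla surround and instruct them. Several gene programs recur below. The factor NRF2, held back by KEAP1 until reactive compounds modify that protein, drives genes for glutathione and quinone handling through antioxidant response elements. SREBP2 drives cholesterol synthesis when sterols are short. Interferons act through STAT factors on interferon-stimulated response elements and switch on antiviral genes.

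Signal is given throughout as log2 of the processed intensity relative to the 75th percentile of the same array, so 0 is that percentile and 1 unit is a doubling. That percentile was 153 to 187 intensity units on the 6 arrays, and 59 to 60.9% of their spots were well above background. Of 22065 genes or transcripts tested by limma, 3639 passed an adjusted p of 0.05 between PEE-PH-TA and control, which is 16.5%. Of these, 1714 were higher in PEE-PH-TA (7.77%) and 1925 were lower (8.72%), and 112 of the higher and 312 of the lower genes differed over 2-fold. Without control replicate 3 the count was 2367, and without each other single array it was 2641 to 3301. Arrays of the 2 groups did not overlap in 32.8% of all genes, and 3.57% passed as higher and 4.67% as lower also without each of the 6 arrays. The p-values measure the spread between these samples, and the number of arrays limits the precision. The words rose and fell are used below for genes past this threshold, in PEE-PH-TA relative to control.

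Promoters were set beside these programs because members of each moved together. The sequences are 300 bases each, from 250 before to 50 after the gene start, from RefSeq on GRCm38.p6. The genes shown were picked by hand, and only windows that hold the named pattern were shown. A match in each of them was therefore fixed by that choice. Capitals mark matches, on either strand, to the antioxidant response core TGACNNNGC in the first 3, to the interferon-stimulated response pattern TTTC, any 2 bases, TTTC in the next 2, and to CCAAT in the last 2. Gsta3, Srxn1 and Gclm, whose windows are chr1:21240335-21240634 on the plus strand, chr2:152105274-152105573 on the plus strand and chr3:122245307-122245606 on the plus strand, are shown as antioxidant genes that rose. Ifit1 (chr19:34640639-34640938, plus strand) and Tgtp2 (chr11:49064163-49064462, minus strand) are shown as interferon-responsive genes that fell. Mvd (chr8:122443373-122443672, minus strand) and Lss (chr10:76531355-76531654, plus strand) are shown as sterol genes that rose.
Gsta3: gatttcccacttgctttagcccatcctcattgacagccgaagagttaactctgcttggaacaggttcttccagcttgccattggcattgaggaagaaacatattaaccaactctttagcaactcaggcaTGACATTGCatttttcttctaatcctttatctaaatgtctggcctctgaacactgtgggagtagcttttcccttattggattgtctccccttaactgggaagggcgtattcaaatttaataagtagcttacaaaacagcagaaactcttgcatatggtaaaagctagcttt
Srxn1: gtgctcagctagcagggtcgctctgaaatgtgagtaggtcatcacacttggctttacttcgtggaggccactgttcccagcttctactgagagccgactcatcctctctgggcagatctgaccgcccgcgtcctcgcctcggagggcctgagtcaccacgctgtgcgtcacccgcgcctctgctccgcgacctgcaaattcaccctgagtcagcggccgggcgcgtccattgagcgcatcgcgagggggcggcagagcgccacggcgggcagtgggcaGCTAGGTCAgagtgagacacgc
Gclm: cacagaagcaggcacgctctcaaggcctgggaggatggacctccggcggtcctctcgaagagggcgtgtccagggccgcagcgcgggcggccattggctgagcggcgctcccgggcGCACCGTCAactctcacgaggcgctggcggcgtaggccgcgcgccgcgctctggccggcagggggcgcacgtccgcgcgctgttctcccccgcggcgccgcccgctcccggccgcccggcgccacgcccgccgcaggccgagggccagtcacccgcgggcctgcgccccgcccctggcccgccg
Ifit1: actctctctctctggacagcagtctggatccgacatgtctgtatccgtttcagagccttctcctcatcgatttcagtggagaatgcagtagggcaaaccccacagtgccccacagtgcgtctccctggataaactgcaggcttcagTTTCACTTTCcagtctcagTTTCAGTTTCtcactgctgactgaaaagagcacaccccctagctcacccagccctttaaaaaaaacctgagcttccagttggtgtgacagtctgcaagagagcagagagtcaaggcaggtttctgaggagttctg
Tgtp2: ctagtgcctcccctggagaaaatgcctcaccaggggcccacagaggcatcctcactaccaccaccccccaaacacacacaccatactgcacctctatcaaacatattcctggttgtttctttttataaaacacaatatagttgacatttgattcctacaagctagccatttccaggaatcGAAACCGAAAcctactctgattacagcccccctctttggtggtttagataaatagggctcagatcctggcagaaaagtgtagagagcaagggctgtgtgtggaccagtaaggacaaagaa
Mvd: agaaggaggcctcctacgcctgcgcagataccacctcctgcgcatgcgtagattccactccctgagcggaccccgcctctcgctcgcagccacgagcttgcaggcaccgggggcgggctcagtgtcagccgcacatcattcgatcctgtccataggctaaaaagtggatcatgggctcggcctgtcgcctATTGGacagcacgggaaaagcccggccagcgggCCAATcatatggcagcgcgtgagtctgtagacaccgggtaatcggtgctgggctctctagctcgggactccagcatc
Lss: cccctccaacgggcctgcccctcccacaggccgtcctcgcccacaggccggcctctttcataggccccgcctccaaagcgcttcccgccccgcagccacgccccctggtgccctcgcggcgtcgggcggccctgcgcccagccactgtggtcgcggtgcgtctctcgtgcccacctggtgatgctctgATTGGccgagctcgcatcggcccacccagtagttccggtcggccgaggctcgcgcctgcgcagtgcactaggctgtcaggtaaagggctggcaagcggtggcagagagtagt

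Matches were counted over all 32851 promoter windows of the same length, and none of the patterns lies within another. The interferon pattern stood in 3.44% of all windows and in promoters of 504 of 13606 tested genes (3.7%), but in 18 of 38 antiviral effectors and 9 of 9 immunity GTPases with a promoter in the table. Counted from the gene start, the first of the 2 matches in Ifit1 begins at -104 and the match in Tgtp2 at -70. The TGACNNNGC matches in Gsta3 and Gclm begin at -121 and -134, and that in Srxn1 at 28, after the gene start. CCAAT stood in 37.4% of windows and in promoters of 42.1% of tested genes. It was in 15 of 15 cholesterol synthesis genes, in 28 of 38 mitosis genes and in 39 of 44 histone genes. In the antioxidant lists 46 of 80 genes held it, and 15 of 38 antiviral effectors did. TGACNNNGC stood in 12.4% of windows and 15.9% of tested genes, beside 16 of 80 genes (20%) of the antioxidant lists. The sterol pattern, ATCAC, any base, CCAC, was in 77 windows and in 0 of 15 cholesterol synthesis genes. A match describes these letters and is not a measured binding site.

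Glutathione transferases, which attach glutathione to reactive compounds, were among the genes that rose furthest. Of 22 measured members, 14 rose and 1 fell, and the median log2 difference was 0.54 beside 0 over all genes tested. On the 3 slides, each of which held 1 array per group, that median was 0.58, 0.62 and 0.48. Gsta3, an alpha-class transferase, had 1.26, 1.13 and 0.84 on the PEE-PH-TA arrays and -3.09, -2.41 and -2.71 on the control arrays. Every PEE-PH-TA array lay far above every control array, and the difference was 3.81 ± 0.22 (SE), or 14.1-fold (limma, adjusted p = 1.43e-08). Gsta2, of the same class, had 1.97, 1.88 and 1.67 in PEE-PH-TA, against -0.78, -0.55 and -0.63 in control, a 5.63-fold difference. Its arrays too did not overlap. The mu class rose as well, with 6 of 7 members past the threshold, among them Gstm3 at 2.81-fold (adjusted p = 1.41e-07) and Gstm1 at 1.48 on the log2 scale. In the pi class, Gstp1 was 1.03 higher. Gstt1, a theta-class transferase, fell by 0.74 (adjusted p = 0.00122), with 1.30, 1.49 and 1.30 in PEE-PH-TA and 2.21, 1.93 and 2.16 in control. Transferases of one class are close in sequence, so a probe may also bind the RNA of a relative, and the files place the Gstm1 probe on another chromosome than the gene.

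The supply of glutathione moved the same way. Of 21 measured genes of cystine uptake, synthesis, recycling and export, 10 rose and 0 fell (median 0.38), and 8 of the 10 calls held without each of the 6 arrays in turn. Slc7a11, the cystine importer, had 0.30, 0.06 and 0.17 in PEE-PH-TA and -2.08, -1.83 and -1.88 in control. The PEE-PH-TA arrays were 4.3-fold higher, with no overlap (limma, adjusted p = 5.48e-07). Gclm and Gclc, the modifier and catalytic subunits of the rate-limiting enzyme of glutathione synthesis, rose by 1.42 ± 0.10 and 1.15 ± 0.12. Gss, which adds the last amino acid, rose by 0.67, and Gsr, which returns oxidized glutathione to its reduced form, by 0.73. Of the gamma-glutamyl turnover genes Ggct, Ggt1, Ggt5, Ggt6, Ggt7, Oplah, Chac1 and Chac2, none passed, with differences between 0.09 and 0.38.

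In the quinone reductase and thioredoxin list, 15 of 21 members rose and 1 fell, with a median of 0.39. Nqo1, which reduces quinones, had 1.07, 0.85 and 0.74 in PEE-PH-TA, against -1.07, -1.15 and -1.04 in control, so it was 3.92-fold higher with no overlap (limma, adjusted p = 3.67e-08). Srxn1, which repairs overoxidized peroxiredoxins, had 5.32, 5.18 and 5.12 in PEE-PH-TA and 3.61, 3.69 and 3.75 in control. All PEE-PH-TA arrays were again the higher ones, by 1.53 ± 0.09. Ephx1, an epoxide hydrolase, rose by 1.16, Txnip, which binds thioredoxin, by 0.94, and Pgd, an NADPH source of the pentose phosphate pathway, by 0.91. Nqo2, a relative of Nqo1, was the member that fell (-0.43), and 2 of the 6 arrays ended that call when left out. Txn1 and Txn2, the thioredoxins themselves, were at 0.11 and -0.01 and did not pass.

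**Figure D1:**
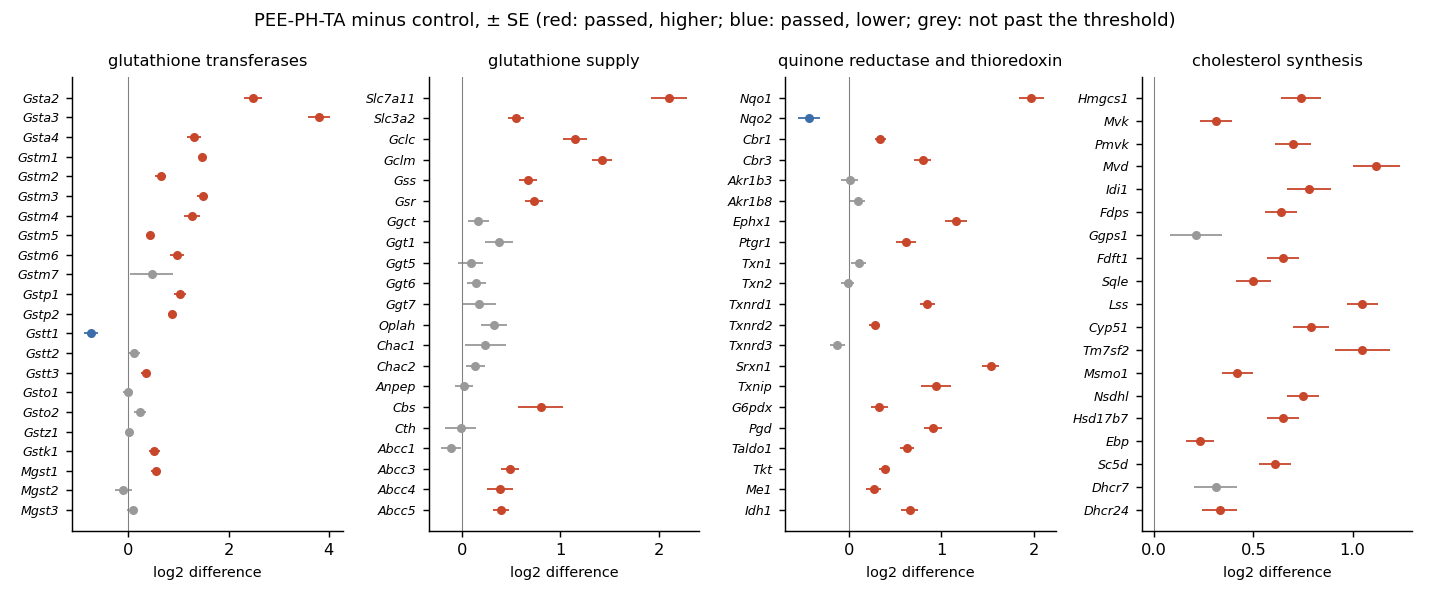
Log2 difference (PEE-PH-TA minus control, x axis) of measured members of 4 gene lists, with the standard error of the limma fit as a bar. Red points passed the threshold as higher and blue as lower, and grey points did not pass; Gsta3 at 3.81 lies furthest right, and 17 of the 19 cholesterol synthesis genes drawn are red.

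Peroxidases and haem genes rose in part. Of 16 peroxidases and dismutases 7 rose and 0 fell, led by catalase (Cat, 1.08 ± 0.10), Gpx3 (0.99) and Gpx2 (0.80), both glutathione peroxidases. Gpx1 and Gpx4 were at -0.07 and 0.00 and did not pass. Hmox1, the haem oxygenase that opens the haem ring, had 6.86, 6.82 and 6.73 in PEE-PH-TA and 5.11, 5.46 and 5.45 in control. It was 2.77-fold higher, and its groups did not overlap (limma, adjusted p = 1.22e-07). Blvrb, a biliverdin reductase, rose by 0.97, the haem transporter Slc48a1 by 1.03 and the ferritin chain Ftl1 by 0.55, while Cpox, a haem synthesis enzyme, fell by 0.37. The factor and its repressor did not pass: Nfe2l2, which encodes NRF2, differed by 0.11 (adjusted p = 0.399) and Keap1 by -0.11 (adjusted p = 0.433). Sqstm1, an autophagy receptor that binds KEAP1, rose by 0.76.

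The transferases stood high by their median in each culture with PEE and near control in the cultures without it, although single mu-class members were above control in PH-TA. Against the same 3 control arrays, the median of the 22 transferases was 0.54 with PEE-PH-TA, 0.64 with PEE-PH, 0.54 with PEE-TA, 0.08 with PH-TA, 0.43 with PEE, 0.04 with PH and -0.01 with TA. Gsta3 differed from control by 3.81 in PEE-PH-TA, 3.3 in PEE-PH, 3.54 in PEE-TA and 4.27 in PEE, and by 0.08, -0.14 and -0.96 in PH-TA, PH and TA. Gstm1 and Gstm3 were 0.69 and 0.71 higher than control in PH-TA (limma, adjusted p = 9.66e-05 and 0.000364). In the tests between treated groups, against PH-TA, 13 of 22 transferases, 10 of 21 supply genes and 15 of 21 quinone and thioredoxin genes were higher in PEE-PH-TA, where 9.22% of all genes were. Against PEE-PH and PEE-TA, 1 and 0 transferases passed, and the difference of Gsta3 was 0.51 ± 0.22 (adjusted p = 0.224) and 0.28 ± 0.22 (adjusted p = 0.612).

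Cholesterol synthesis rose along nearly its whole length. Of 20 measured enzymes 18 rose and 0 fell, the median was 0.64, and on the slides it was 0.58, 0.44 and 0.72. Mvd, which makes isopentenyl diphosphate at the end of the mevalonate steps, had 2.47, 2.44 and 2.02 in PEE-PH-TA and 1.40, 1.18 and 0.97 in control. The lowest PEE-PH-TA array was above the highest control array, and the difference was 1.12 ± 0.12, or 2.18-fold (limma, adjusted p = 5.76e-06). Lss, which closes squalene epoxide to lanosterol, had 2.88, 2.79 and 2.77 in PEE-PH-TA, against 1.86, 1.78 and 1.67 in control, 2.07-fold higher. The 2 groups were tight and apart. Tm7sf2, a sterol reductase, rose by 1.05 ± 0.14, Cyp51, which demethylates lanosterol, by 0.79 and Idi1, an isomerase of isopentenyl diphosphate, by 0.78. Ggps1, which leads away from sterols, and Dhcr7 did not pass at 0.21 and 0.31, and the probes of Ggps1 ran from -0.55 to 0.36.

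Other genes under sterol control rose with them, 6 of 16 and none lower. Insig1, which holds SREBPs in the endoplasmic reticulum, rose by 0.71, and Stard4, a sterol carrier, by 0.53. In fatty acid synthesis 8 of 25 genes rose and 1 fell. Acss2, which makes acetyl-CoA from acetate, had 0.45, 0.16 and 0.52 in PEE-PH-TA and -0.87, -0.95 and -1 in control, without overlap, a rise of 1.32 ± 0.13. The desaturase Scd2 rose by 0.76, the citrate carrier Slc25a1 by 0.55, Acly by 0.46 and Fasn by 0.41. Of 26 genes of fatty acid oxidation 3 rose and 0 fell, and all 3 calls ended without at least 1 array.

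As with the antioxidant genes, the cholesterol synthesis median was raised with PEE (0.69), PEE-PH (0.46) and PEE-TA (0.66) and not with PH-TA (-0.22), PH (-0.16) or TA (-0.05), against the control arrays that all of these share with the 0.64 of PEE-PH-TA. Of the 20 enzymes, 19 were higher in PEE-PH-TA than in PH-TA. Mvd was 1.17 higher than in PH-TA (limma, adjusted p = 3.71e-06), and differed by 0.08 from PEE-PH (adjusted p = 0.749) and by -0.13 from PEE-TA (adjusted p = 0.641).

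**Figure D2:**
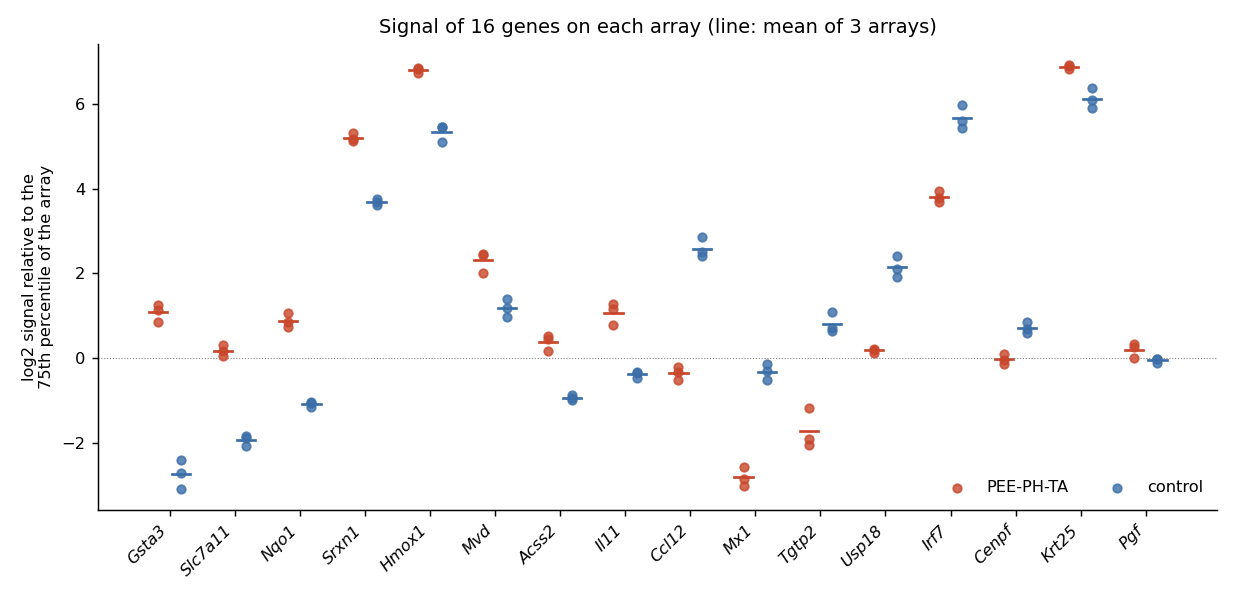
Log2 signal relative to the 75th percentile of the array (y axis) of 16 genes on the 3 PEE-PH-TA arrays (red, left) and the 3 control arrays (blue, right), with a line at each mean. Gsta3 to Il11 stand higher in PEE-PH-TA, Ccl12 to Cenpf lower and Krt25 higher, and Pgf did not pass the threshold.

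Interferon-responsive genes fell as a group. Of 48 measured antiviral effectors, 41 fell and 0 rose, and each of the 41 calls held without any 1 of the 6 arrays. Their median was -1.59, and on the slides it was -1.77, -1.41 and -1.59. Mx1, an antiviral GTPase, had -3.02, -2.58 and -2.86 in PEE-PH-TA and -0.14, -0.52 and -0.30 in control. Each PEE-PH-TA array lay over 2 units below each control array, and the signal was 0.177 of that in control (limma, adjusted p = 0.000974). Ifi27l2a fell by 2.09 and Ifi206, a sensor-like family member, by 2.37 ± 0.34. Ifit1, which binds foreign RNA ends, had -1.58, -0.94 and -1.11 in PEE-PH-TA and 1.13, 0.74 and 0.78 in control, so it too was lower on every array. Ddx60 and Ifit1bl1 were not well above background on any PEE-PH-TA array, so only bounds hold, at least 5.14-fold and at least 2.01-fold lower. Of the 7 effectors that did not pass, Rsad2 was at -1.21 by its brightest probe (adjusted p = 0.0552), while its 2 probes ran from -1.5 to -1.21 and 1 passed, and Trim25, at 0.12, was the member with a positive difference.

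Immunity GTPases, which act on membranes around microbes, fell in 15 of 16 measured members (median -1.56). Tgtp2 had -1.91, -1.18 and -2.06 in PEE-PH-TA, against 1.08, 0.71 and 0.65 in control, a signal 0.173 of that in control (limma, adjusted p = 0.00168). The groups were well apart, although the second PEE-PH-TA array was the least low. Gbp3 fell by 1.95, Iigp1 by 1.89 and Gbp2 by 1.66, and Gbp11, not well above background in PEE-PH-TA, was at least 3.6-fold lower. Gbp5 was at -0.18 by its brightest probe and did not pass, while the lower of its 2 probes was at -1.97 and 1 of the 2 passed.

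The ligand and the factors of the pathway were lower too. Ifnb1, interferon beta, had -5.81, -5.08 and -6.51 in PEE-PH-TA and -2.76, -2.84 and -3.06 in control, a difference of -2.91 ± 0.48 (limma, adjusted p = 0.000451). Only 1 of the 3 PEE-PH-TA arrays measured it well above background, against 3 of 3 control arrays, so the size is loosely known. Ifna2, Ifna5 and Ifnl3 differed by 0.11, 0.09 and 0.03 and did not pass. Among sensors of foreign nucleic acid, Zbp1 fell by 1.88, Dhx58 by 1.66, Ddx58 by 1.19 and Tlr3 by 1.15. Mavs, the adaptor of the Ddx58 protein, was at -0.03 and did not pass. Irf7, which amplifies interferon induction, had 3.95, 3.68 and 3.77 in PEE-PH-TA and 5.99, 5.43 and 5.61 in control, all lower, at 0.272 of the control signal (adjusted p = 0.000636). Stat2 fell by 1.21. The receptor chain Ifnar1 was 0.52 lower by its brightest probe, a call that 4 arrays ended, while its 4 probes ran from -0.52 to 0.28 and 1 of them passed. Ifnar2, Ifngr1, Jak1, Tyk2, Irf3 and Stat3 did not pass, with differences between -0.13 and 0.16. Usp18 and Isg15, feedback genes of the response, fell by 1.96 and 1.87.

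**Figure D3:**
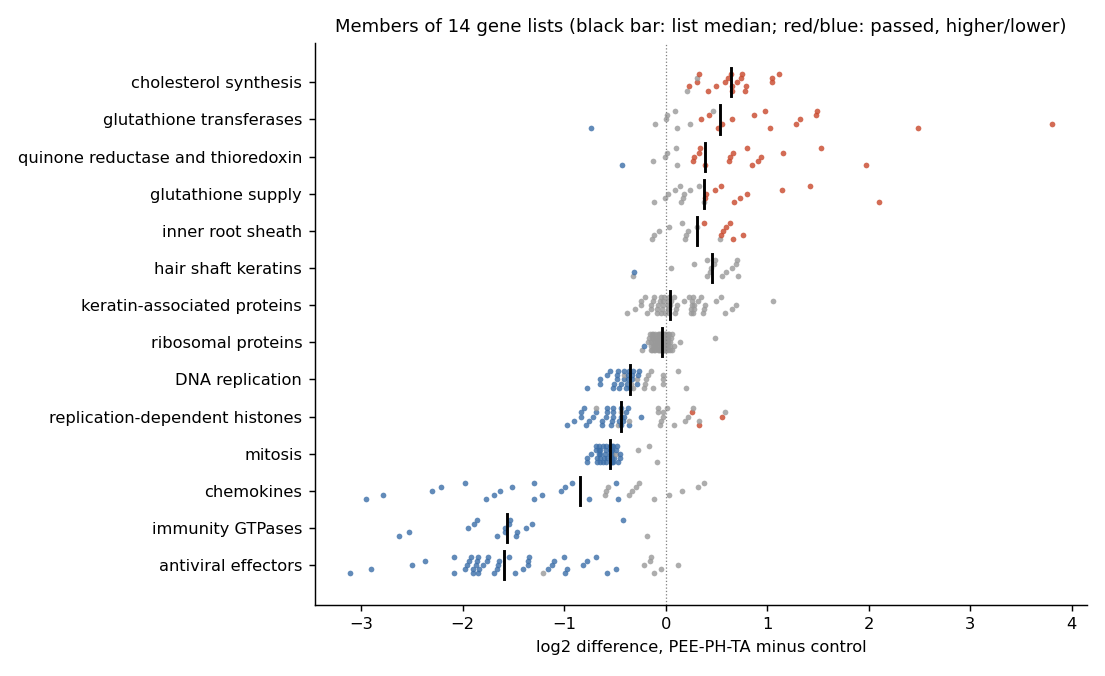
Log2 difference (PEE-PH-TA minus control, x axis) of every measured member of 14 gene lists, 1 point a gene, with a black bar at the list median. The medians run from 0.64 for cholesterol synthesis to -1.59 for antiviral effectors, and ribosomal proteins lie near 0 (median -0.04).

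In antigen presentation 14 of 23 genes fell and 0 rose, of which 7 held without each array. The immunoproteasome subunits Psmb8, Psmb9 and Psmb10 fell by 1.16, 1.09 and 0.85, the peptide transporter Tap1 by 0.88 and the class I activator Nlrc5 by 0.77 by the brighter of 2 probes that ran from -0.77 to 0.42. H2-K1 and H2-D1, class I heavy chains, were at -0.29 and -0.14 and did not pass. Of 30 chemokines 18 fell and 0 rose, with a median of -0.84. Ccl12, a monocyte attractant, had -0.34, -0.53 and -0.22 in PEE-PH-TA and 2.41, 2.50 and 2.85 in control. No array came near the other group, and the signal was 0.129 of that in control (limma, adjusted p = 1.54e-06). Ccl11, which attracts eosinophils, fell by 2.21, Ccl8 by 1.98, Ccl4 by 1.77 and Ppbp by 1.69. Cxcl9 and Cxcl10, T cell attractants induced by interferons, were 2.78 and 2.30 lower, calls that 2 and 5 of the 6 arrays ended.

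Cytokines were lower more often than higher. Of 37 genes 8 fell and 2 rose, where 8.72% of all genes fell and 7.77% rose. In this list 29 members were below 0, and the median was -0.34. Csf2, a growth factor of myeloid cells, fell by 2.42, with 2 of 3 PEE-PH-TA arrays well above background, and Il24 fell by 1.32, Tslp by 0.95, Vcam1 by 0.94 and Il33 by 0.86. Il11, of the interleukin-6 family, had 1.28, 1.15 and 0.77 in PEE-PH-TA and -0.48, -0.32 and -0.35 in control, 2.74-fold higher without overlap (limma, adjusted p = 0.000552). Il19, of the interleukin-10 family, rose by 1.6. Il1b, Il6 and Il1a differed by -0.86, -0.63 and 0.11 and did not pass.

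Markers of immune cells were lower in part beside these genes. Of 16 macrophage markers 6 fell, among them Fcgr1 by 1.34, itself induced by interferon, Aif1 by 0.90 and C1qa by 0.76. Csf1r, Mrc1, Lyz2 and Cd68 did not pass, at -0.21, -0.21, 0.02 and 0.10. Summed over the list, the signal was 54.9 to 66.2 times the 75th percentile on PEE-PH-TA arrays and 61 to 76.1 times on control arrays, which overlap, and 15 of 16 markers were well above background on all 6 arrays. Mast cell markers summed to 16.2 to 25.2 in PEE-PH-TA and 24.9 to 41.1 in control, and 4 of 8 fell. Markers of T cells, Langerhans cells and neutrophils summed to 41.9 to 47.8 in PEE-PH-TA and 53.1 to 63.3 in control, and 2 of 10 fell, Ly6g by 1.02 and Itgax by 0.72. The part of these cells in the interferon and chemokine differences was not tested.

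The interferon-responsive genes were lower than control in each treated group by their medians. For the 48 antiviral effectors these were -1.59 with PEE-PH-TA, -1.84 with PEE-PH, -1.28 with PEE-TA, -0.63 with PH-TA, -1.26 with PEE, -0.60 with PH and -0.34 with TA, from the same control arrays. Between treated groups, 16 of 48 effectors and 5 of 16 GTPases were lower in PEE-PH-TA than in PH-TA, where 4.75% of all genes were lower, and none of either list passed against PEE-PH or PEE-TA. Mx1 differed by -1.22 from PH-TA (limma, adjusted p = 0.0805), by 0.48 from PEE-PH (0.606) and by -0.27 from PEE-TA (0.84), each with an SE of 0.45.

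**Figure D4:**
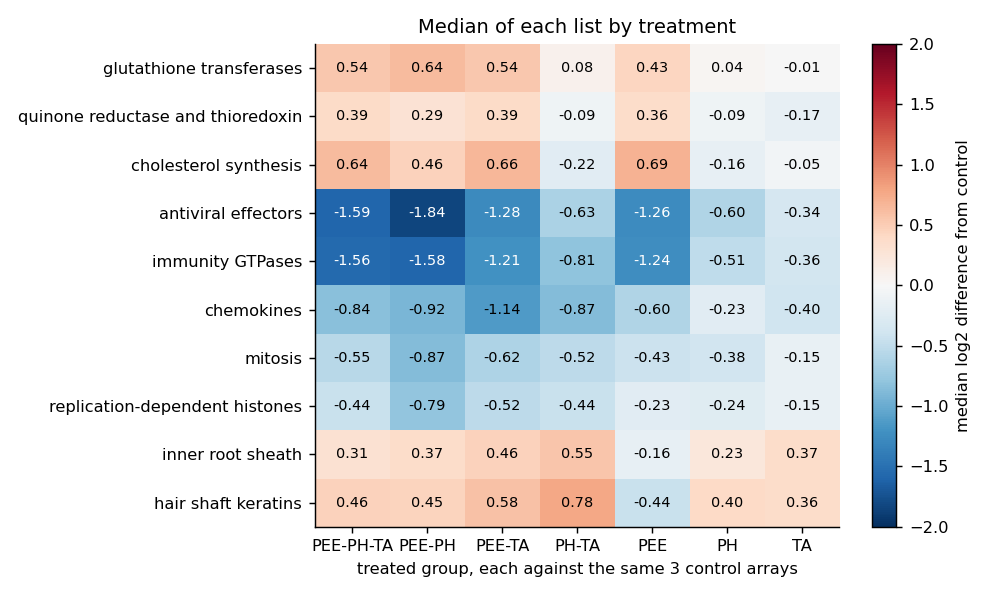
Median log2 difference from control (colour and printed value) of 10 gene lists (rows) in the 7 treated groups (columns), all set against the same 3 control arrays. The antioxidant and cholesterol rows are raised in the 4 columns with PEE, and the antiviral row is below 0 in all 7 columns, from -0.34 with TA to -1.84 with PEE-PH.

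Genes of cell division fell by smaller steps. Of 46 mitosis genes 42 fell and 0 rose, with a median of -0.55 and medians of -0.58, -0.52 and -0.60 on the slides, and 41 calls held without each array. Cenpf, a kinetochore protein, had -0.05, -0.14 and 0.10 in PEE-PH-TA and 0.60, 0.68 and 0.84 in control, a difference of -0.74 ± 0.11 (limma, adjusted p = 0.00017). Its highest PEE-PH-TA array lay below its lowest control array. Kif2c, a microtubule depolymerase, and Anln, an actin binder of the cleavage furrow, each fell by 0.77, and Aurka and Prc1, a spindle kinase and a spindle bundler, by 0.69. Mki67, the common marker of cycling cells, was at 0.69 of its control signal. Cdk1 did not pass at -0.09, but its probes ran from -0.69 to -0.09. Of 41 DNA replication genes 26 fell and 0 rose (median -0.35). Tk1, thymidine kinase, had 2.32, 2.34 and 2.08 in PEE-PH-TA and 3.07, 2.94 and 3.02 in control, lower on every array by a mean of 0.77. Ccnd1, cyclin D1, fell by 0.65, Pole by 0.55 and Rrm1 by 0.52, while Pcna was at -0.14 and Myc at 0.12, which did not pass.

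Replication-dependent histones, which are made in S phase, fell in 29 of 49 measured members and rose in 3, with a median of -0.44. H1f1 had -0.39, -0.35 and -0.58 in PEE-PH-TA and 0.63, 0.50 and 0.45 in control, 0.511 of the control signal (limma, adjusted p = 9.61e-05). H2ac13 fell by 0.90, H4c18 and H3c1 by 0.83 and H2bc7 by 0.80. H2bc4, which rose by 0.56, had 4.10, 4.18 and 4.61 in PEE-PH-TA and 3.68, 3.77 and 3.76 in control. H1f2 was 0.33 higher by its brightest probe and -0.03 by the mean of its probes, and histone copies are alike in sequence. Of 21 cyclin-dependent kinase inhibitors and p53 targets 11 rose and 1 fell, of which 4 and 1 held without each array. Trp53inp1 rose by 0.82, Gadd45a by 0.71, Ccng1 by 0.47 and Cdkn1a, the p21 inhibitor, by 0.37, and Cdkn2d fell by 0.30. Trp53 itself was at -0.06. The mitosis median was -0.87 with PEE-PH, -0.62 with PEE-TA, -0.52 with PH-TA, -0.43 with PEE, -0.38 with PH and -0.15 with TA, against the control arrays they share with PEE-PH-TA.

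Follicle keratins split by layer. Krt25, Krt27 and Krt71, which build the inner root sheath, rose by 0.76, 0.59 and 0.57. Krt25 had 6.92, 6.83 and 6.90 in PEE-PH-TA and 6.10, 6.38 and 5.90 in control, with all PEE-PH-TA arrays higher (limma, adjusted p = 0.00366). In all, 7 of 17 inner root sheath genes rose and 0 fell, 3 of them without dependence on any 1 array. The hair shaft keratins had a median of 0.46 over 16 members, but 0 rose. Krt31 had 5.50, 5.43 and 5.54 in PEE-PH-TA and 4.92, 5.09 and 4.34 in control, a difference of 0.70 ± 0.28 that did not pass (adjusted p = 0.101) although the groups did not overlap. The shaft median varied between slides, at 0.36, 0.15 and 0.84. Krt85 was 0.31 lower, a call that 4 of the 6 arrays ended. Of 54 keratin-associated proteins of the shaft none passed (limma; median 0.04), in a fit where 1714 genes rose and 1925 fell. In the outer sheath and epidermis 7 of 15 keratins fell and 0 rose. Krt5, of the basal layer, fell by 0.57, Krt6b by 0.55 and Krt78 by 0.95.

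The regulators of the hair matrix were higher in part, with 7 of 20 past the threshold as higher and 1 as lower. Cux1, a homeodomain factor of the inner root sheath lineage, had 3.04, 2.93 and 3.03 in PEE-PH-TA and 2.52, 2.55 and 2.43 in control, 0.50 ± 0.11 higher (limma, adjusted p = 0.0032), while its probes ran from -0.32 to 0.50. It was the single factor whose call held without each array. Msx2, Foxn1 and Hoxc13, which act in matrix and shaft differentiation, were 0.91, 0.79 and 0.60 higher, calls that 2, 3 and 5 of the 6 arrays ended. Lef1, which carries Wnt signals in the matrix, was 0.61 higher without passing (0.0944). The inner root sheath and shaft medians were -0.16 and -0.44 with PEE, set beside 0.55 and 0.78 with PH-TA, so in these lists PEE alone lay on the other side of control than PEE-PH-TA. Those differences share the control arrays, and no member of the 2 lists was tested against PEE here.

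**Figure D5:**
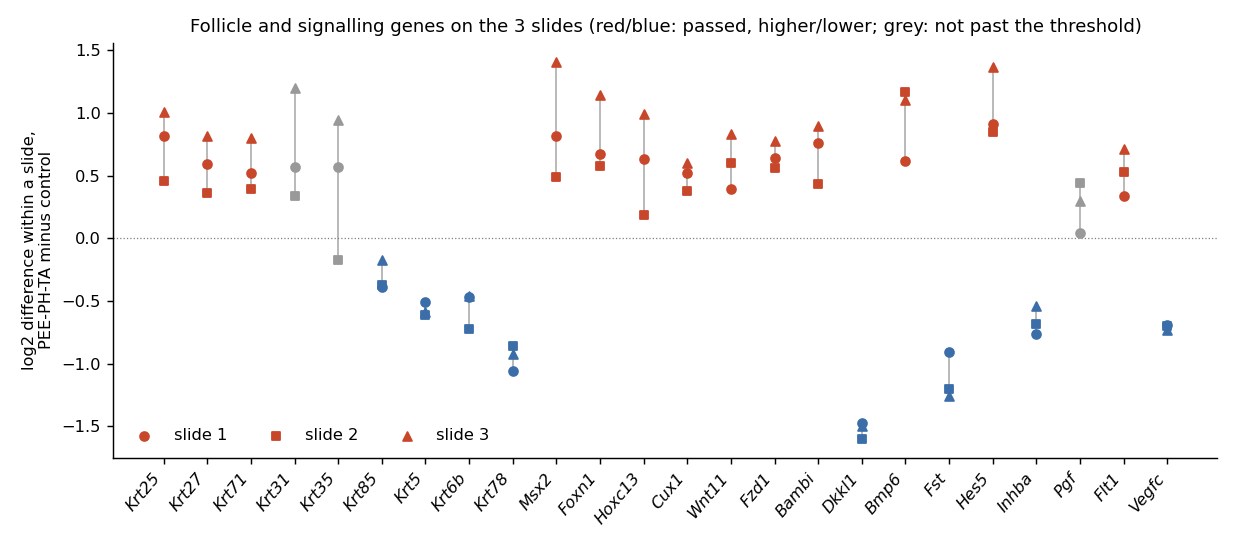
Log2 difference between the PEE-PH-TA array and the control array of the same slide (y axis) for 24 follicle and signalling genes, 1 symbol a slide, red or blue where the gene passed as higher or lower and grey where it did not. Krt25 is above 0 on each slide (0.46 to 1.01), Krt35 is not, and Dkkl1, Fst, Inhba and Vegfc are below 0 on all 3.

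Signals between follicle cells changed in single members more than in whole pathways. Of 43 Wnt genes 7 rose and 1 fell. The ligands Wnt11 and Wnt9a rose by 0.61 and 0.46, the receptor Fzd1 by 0.66 and the targets Nkd1 and Bambi by 0.70 each. Dkkl1, a relative of the Dickkopf inhibitors, had 0.37, 0.31 and 0.48 in PEE-PH-TA and 1.84, 1.91 and 1.97 in control. It was thus lower on every array, at 0.348 of the control signal (limma, adjusted p = 4.73e-07). Axin2, a direct target of beta-catenin, was at 0.05 and did not pass. Of 21 BMP genes, Bmp6 rose by 0.96 ± 0.13, and Fst, which traps activins and BMPs, fell by 1.12 ± 0.13, with 1.00, 0.90 and 0.99 in PEE-PH-TA and 1.90, 2.10 and 2.25 in control. In the Notch list the targets Hes5 and Heyl rose by 1.04 and 0.64. In the Hedgehog list Shh did not pass at 0.35, and Hhip, an inhibitor that the pathway induces, fell by 0.68.

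Of 42 growth factor genes of the hair cycle 5 rose and 6 fell. Inhba, an activin subunit, had 1.38, 1.44 and 1.64 in PEE-PH-TA and 2.14, 2.12 and 2.19 in control, all lower, a fall of 0.66 ± 0.12 (limma, adjusted p = 0.00082). Edn1, endothelin, fell by 0.43. Igfbp4 rose by 0.77, Tgfbr1 by 0.61 and Fgfr1 by 0.31. Igf1, Fgf7, Fgf10 and Kitl, ligands made by the papilla and nearby dermis, were at 0.17, 0.20, -0.06 and 0.22 and did not pass. Of 20 papilla genes 4 rose, with Ednrb (0.71) and Hey1 (0.49) held without each array. Of 16 stem cell genes 2 rose, Fgfbp1 by 0.58 and Gas1 by 0.44, and 1 fell, with a median of -0.01. Over all genes tested, 7.77% rose and 8.72% fell.

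The title of the series names placental growth factor and its receptor VEGFR-1, encoded by Pgf and Flt1. Pgf had 0.00, 0.34 and 0.26 in PEE-PH-TA and -0.03, -0.11 and -0.03 in control. The PEE-PH-TA arrays were higher without overlap, but by 0.26 ± 0.14, which did not pass (limma, adjusted p = 0.231). Flt1 had 0.89, 1.17 and 1.46 in PEE-PH-TA and 0.56, 0.65 and 0.75 in control. It was 0.52 ± 0.15 higher (adjusted p = 0.0192) with no overlap, and that call ended without any of 3 of the 6 arrays. Within the slides the Flt1 difference was 0.34, 0.53 and 0.71, and that of Pgf 0.04, 0.44 and 0.30. Vegfc and Vegfd, the lymphatic growth factors, fell by 0.70 and 0.50, and Vegfa, Vegfb, Kdr and Flt4 did not pass at 0.32, 0.27, -0.15 and 0.28, although the probes of Vegfa ran from -0.63 to 0.53. Endothelial markers summed to 111 to 118 times the 75th percentile in PEE-PH-TA and 106 to 119 times in control, and 3 of 14 were higher (Tek 0.57, Cdh5 0.56, Emcn 0.53), calls that each ended without some arrays. Angpt4, a ligand of the receptor TIE2, had 0.48, 0.37 and -0.11 in PEE-PH-TA and -1.19, -1.29 and -1.21 in control, 2.78-fold higher without overlap (adjusted p = 0.00127). Between PEE-PH-TA and the pairs, neither Pgf nor Flt1 passed, with Flt1 at -0.43, -0.18 and -0.25 against PEE-PH, PEE-TA and PH-TA and Pgf at -0.23, -0.25 and -0.26.

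Markers of cells next to the follicle were measured too. Skeletal muscle markers summed to 111 to 158 in PEE-PH-TA and 74.5 to 89.1 in control with a list median of 0.61, and 2 of 19 passed, Myog (0.76) and Neb (0.99), calls that 4 and 3 arrays ended. Their part in the other results was not tested. Of 9 pigment cell markers 3 rose, among them Dct by 0.68 and Gpr143, a pigment granule receptor, by 1.42, with 1 of 3 control arrays well above background. Nefm and Uchl1, neuronal genes, rose by 1.05 and 0.83, and Nefl, not well above background in control, was at least 1.33-fold higher. Of 10 fibroblast markers 2 fell and 0 rose (median -0.26), among them Mfap5, a microfibril gene, by 1.15. Of 8 contractile markers of smooth muscle and dermal sheath 2 fell, among them Acta2 by 0.34. Their median was -0.01, with 4 members above 0 and 4 below. No adipocyte marker passed (limma), and Adipoq had overlapping arrays.

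Genes that handle the added vitamins were followed by list. Of 19 vitamin B6 genes 3 rose and 1 fell (median -0.02), where 7.77% of all genes rose and 8.72% fell. Aox1, an aldehyde oxidase that turns pyridoxal into pyridoxic acid, had -2.24, -2.76 and -2.85 in PEE-PH-TA and -3.92, -3.81 and -3.71 in control, a rise of 1.2 ± 0.19 without overlap (limma, adjusted p = 0.000383). It was also higher in the other cultures with PEE, by 1.6 with PEE, 1.5 with PEE-PH and 1.56 with PEE-TA, against 0.08 with PH. Pdxk, the kinase that leads to the active cofactor, was at 0.03 and did not pass. For coenzyme A, 3 of 10 genes rose (median 0.08), with the pantothenate kinases Pank1 and Pank3 at 0.47 and 0.33. For vitamin E, 1 of 10 genes rose (median 0.06), near the share of all genes. It was Scarb1, a lipoprotein receptor, at 0.33, while its 2 probes ran from 0.16 to 0.33 and 1 passed. Ttpa, the tocopherol transfer protein, was at 0.03.

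Fewer genes passed against the pairs with PEE than against the pair without it. PEE-PH-TA was higher than PEE-PH in 229 genes (1.04%) and lower in 13 (0.0589%), 1.1% in all. It was higher than PEE-TA in 47 (0.213%) and lower in 15 (0.068%), 0.281% in all. Against PH-TA, the pair without PEE, 2034 were higher (9.22%) and 1047 lower (4.75%), 14% in all. The count against PEE-PH depended on scaling and on single arrays, with 12 genes under quantile normalization, 2 without PEE-PH-TA replicate 2 and 802 without PEE-PH replicate 3. With the slide as a block, 395 genes passed against PEE-PH and 104 against PEE-TA. Against PEE-TA the count was 3 to 327 without single arrays, and against PH-TA it was 1313 to 3487. Of 49 histones 17 were higher in PEE-PH-TA than in PEE-PH and 0 lower, with a median of 0.36, and 0 of 49 passed under quantile normalization. H3c1 had -2.83, -3.03 and -3.05 in PEE-PH-TA and was 0.52 above PEE-PH (limma, adjusted p = 0.0365) and 0.83 below control.

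Genes that passed against both pairs with PEE were 17, and those named here were chosen after their values were seen. Ccn1 and Ccn2, secreted matrix proteins of the CCN family, were higher in PEE-PH-TA than in PEE-PH by 0.87 (limma, adjusted p = 0.00403) and 0.57 (0.00846), and than in PEE-TA by 0.69 (0.012) and 0.48 (0.0159). Ccn1 had 2.41, 2.55 and 2.58 in PEE-PH-TA and 2.74, 2.60 and 2.78 in control, which differ by -0.20 and did not pass. Ccn2 was 0.73 lower in PEE-PH-TA than in control. Against PEE-PH both calls held without each array, but 2 and 3 of 9 arrays ended those of Ccn1 and Ccn2 against PEE-TA. Sod3, the extracellular superoxide dismutase, and Myh3, embryonic myosin, were lower than in both pairs, by 0.57 and 0.89 against PEE-PH and 0.66 and 0.99 against PEE-TA. Leaving out 1 of 9 arrays ended the call of Sod3 for 6 arrays against each pair, and that of Myh3 for 5 against PEE-PH and 6 against PEE-TA. Under quantile normalization Myh3 passed against neither pair (adjusted p = 0.0784 and 0.0546) and Sod3 not against PEE-PH (0.0725).

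Mitochondrially encoded mRNAs, a group also chosen after its values were seen, were higher in PEE-PH-TA than in PH-TA in 9 of 10 measured genes, with a median of 0.80 and the same 9 of 10 count under quantile normalization. ND5, a subunit of complex I, had 5.79, 5.77 and 5.76 in PEE-PH-TA and was 0.97 above PH-TA (limma, adjusted p = 0.000194). Against PEE-PH 9 of 10 were higher too, with none under quantile normalization, and against PEE-TA none passed. Against control 2 of 10 were lower and 0 higher, with a median of -0.31, and 4 of 10 were lower under quantile normalization. There ND5 and CYTB did not pass as reported, at -0.28 and -0.19, and COX1 was 0.47 lower, a call that 5 arrays ended. Ribosomal protein genes were higher than in PH-TA in 47 of 84, by a median of 0.20, but in 8 under quantile normalization, where the median was 0. Of 17 collagens 11 were lower in PEE-PH-TA than in PH-TA and 0 higher, where 4.75% of all genes were lower. That collagen count was not repeated under quantile normalization. Against control 4 of 17 collagens fell and 0 rose, where 8.72% of all genes fell, and none of the 4 calls held without each array.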

How the data were processed

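RNA of 10 pooled vibrissa follicles per sample, from independent experiments, was hybridized to Agilent one-colour arrays. The deposited intensity values are the processed signals of Agilent Feature Extraction 12.0.3.1, per the file headers background-subtracted and detrended within each array and not scaled between arrays. The authors' value table of the same arrays holds log2 values, judged from their range, with a scaling not given in the sources used here, and served as an alternative. Probe positions are on mm9 per the file headers.

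Control spots and spots marked as outliers were left out, spots of a probe were averaged, and log2 intensity minus the 75th percentile of each array was used. Probes were tested where all 3 arrays of any of the 8 groups measured them well above background (33340 of 56605 probes), and the brightest probe stood for a gene. Limma 3.58.1 in R 4.3.3 fitted 8 group means over 24 arrays, two-sided, with Benjamini-Hochberg adjustment over 22065 genes and a threshold of 0.05. On simulated data, with 100 genes of each size changed among 22065, the fit was run for PEE-PH-TA against control. It recovered 40% of genes changed by 0.5 and 81% of genes changed by 1 on the log2 scale. The share of genes changed there was smaller than the 16.5% that passed here, and the adjustment depends on that share. These rates need not hold for the real arrays. Where a group was not well above background, only a bound is given. Each slide held 1 array per group.

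The members and lists were chosen with earlier results of these data known. Named genes are the 20 largest rises and falls and up to 5 of each direction per list, among genes whose arrays did not overlap and whose calls held without each of the 6 arrays, plus Pgf, Flt1 and list members that did not pass or that depended on single arrays. Mki67, Ifit1, Gstp1, Ccn1, Ccn2, Sod3, Myh3 and the mitochondrially encoded genes were chosen after their values were seen. Some genes that the rule selects are not reported here.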

Additional observations from a re-analysis of the deposited data

How the results depend on the processing

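Between PEE-PH-TA and control, 3639 genes passed, 2222 with only the arrays of both groups, 2367 to 3301 without single arrays and 1384 to 1940 without a replicate number in all groups. Against PEE-PH the 242 genes became 12 with quantile normalization, 477 with normexp, 7 with the authors' table, 23 with no filter on dim probes, 617 with a trended prior, 0 with only both groups' arrays, and 0 to 802 with arrays left out. Against PEE-TA the 62 genes became 22 with the authors' table, 30 with no filter, 101 with a trended prior, 0 with only both groups' arrays and 0 to 327 with arrays left out. Against PH-TA the 3081 genes became 8631 with normexp, 8386 with no filter, 521 with only both groups' arrays and 237 to 3487 with arrays left out. The cause was not tested. The genes called higher were 47.1% of those called against control, 53.8% with quantile normalization and 39.4% with the mean of all probes. That mean turned H1f2 to -0.03.

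With the replicate number as a block, 3831 genes passed against control, 395 against PEE-PH and 104 against PEE-TA. The replicate number is also the slide, so this block takes out the slide. In their deviations from the group mean, same-numbered PEE-PH-TA and control arrays correlated at 0.11, -0.04 and 0.21. Differently numbered arrays of these groups correlated at -0.22 to 0.11. Of 384 results on single genes, 383 kept their direction and side of the threshold under the block, 381 under quantile normalization, 366 under normexp, 376 with the authors' table, 365 with no filter, 358 with the mean of all probes, 331 with only both groups' arrays, 349 to 360 without single arrays and 289 to 302 without a replicate number. With no filter on dim probes the median of all genes moved to 0.12 against PEE-PH and 0.15 against PH-TA, and with normexp to 0.11 against PH-TA. Genes not well above background in a group have only a bound there.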

Other observations

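In the list of ATF4 targets 6 of 20 genes fell and 2 rose, with a median of -0.02. Phgdh, the entry enzyme of serine synthesis, had 3.58, 3.62 and 3.33 in PEE-PH-TA and 4.23, 4.17 and 4.12 in control, lower on every array (-0.66 ± 0.09, limma, adjusted p = 5.23e-05). Psat1, the next enzyme and one that uses vitamin B6, fell by 0.58, Mthfd2 and Shmt2, enzymes of mitochondrial one-carbon metabolism, by 0.42 and 0.30, and Asns, which makes asparagine, by 0.40. Atf4 and Ddit3 were at -0.09 and -0.07 and did not pass. Gdf15, a stress-induced hormone, rose by 0.86.

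In the cornified envelope 5 of 19 genes rose and 2 fell. Lce3c had 5.46, 5.18 and 5.49 in PEE-PH-TA and 3.81, 4 and 4.23 in control, 2.57-fold higher without overlap (limma, adjusted p = 3e-05), and Lce3b and Lce3a rose by 1.35 and 1.08. Ivl, involucrin, fell by 1 on the log2 scale. Of 11 kallikrein genes, skin proteases and their inhibitors, 6 fell and 0 rose. Klk14 had -2.51, -2.77 and -2.72 in PEE-PH-TA, against -0.40, -0.68 and -0.75 in control, at 0.241 of the control signal.

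Among 8 neuropeptide genes, Penk, which encodes enkephalins, had 3.37, 3.27 and 3.31 in PEE-PH-TA and 4.68, 4.57 and 4.80 in control, all lower (-1.37, limma, adjusted p = 5.48e-07). Tac1, the substance P precursor, rose by 1.62. Calca was 1.09 higher by its brightest probe, while its probes ran from -0.16 to 1.09. Ahrr, the repressor of the aryl hydrocarbon receptor, rose by 1.70 with 2 of 3 control arrays well above background, and Cyp1b1, a target of that receptor, by 0.81. Slc28a2, a nucleoside carrier not well above background in PEE-PH-TA, was at least 5.3-fold lower. Cyp2a5, a cytochrome close in sequence to Cyp2a4, fell by 2.36, and Ubd, a ubiquitin-like protein, by 2.25.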
